A study of Homo sapiens with 8 samples.

Results

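The comparison described here is the knockdown of KDM3B in NB4 cells that received no ATRA. NB4 is an established human cell line from acute promyelocytic leukemia (APL) that carries the PML/RARα fusion protein, and ATRA (all-trans retinoic acid) is the ligand that makes such cells mature toward granulocytes. All libraries labelled undifferentiated were used, which gave 4 of the 8 RNA-seq libraries of the series. They were 2 libraries of cells stably transduced with the control vector (scramble) and 2 of cells stably transduced with an shRNA against KDM3B (shKDM3B). Both groups carry the lentiviral puromycin vector, grew in the same serum-containing medium and received no ATRA. Puromycin had been used to select both lines. The labels call the control an empty vector, whereas the methods of the study describe a scrambled shRNA. Which of the KDM3B target sequences the study designed was used for these libraries is not stated, so effects of an shRNA other than those on KDM3B cannot be told apart. Nothing in the labels says that replicates came from separate cultures, so the p-values measure the spread between these libraries, which may be technical.

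KDM3B is a JmjC-domain enzyme that removes methyl groups from lysine 9 of histone H3 (H3K9me1/me2). Dimethylated lysine 9 is found at silenced and compacted chromatin, whereas the monomethylated form is also found at active genes. Promyelocytes are the granulocyte precursors that fill the azurophil granules with enzymes such as myeloperoxidase. On maturing they switch on the NADPH oxidase, adhesion molecules, pattern receptors and chemoattractant receptors of the neutrophil, and in APL the fusion protein holds them back before this step. Sterol and fatty acid synthesis, also described below, is governed by the SREBP transcription factors, which are released when cells lack cholesterol.

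Between 19444480 and 33017787 counts per library fell on genes, and mitochondrially encoded genes took from 5.02% to 6.53% of them. Markers of the labelled cell type were present. MPO was at 4299 CPM or more in every library (CPM, counts scaled to a common library total), and CTSG, CD33, CEBPE and MYB were detected throughout, but ELANE had 1, 1, 7 and 2 counts and PRTN3 and AZU1 between 1 and 24 counts. CD68 was listed at 0 in all 4 libraries, so whether a level near 0 in these files reflects low RNA was not tested. Of the markers of other lineages, HBB, PF4, MS4A1, CD3G and CD8A had 0 counts in each library, whereas CD4, TRAC, CD79B, EPCAM, ITGA2B, EPX and HDC were detected in all 4, and the summed level of 6 fibroblast markers lay between 0.103 and 0.168 CPM. In bulk RNA, fewer cells of a type and less RNA per cell cannot be told apart.

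After TMM scaling in edgeR, 13855 genes passed the low-count filter. Genes were called at an unadjusted P under 0.05 together with a change of at least 1.5-fold. By this rule 971 genes were called, which is 7.01% of those tested. Of these, 482 were higher in the shKDM3B cells (3.48% of genes tested) and 489 were lower (3.53%). In 964 of them the scramble and shKDM3B libraries did not overlap, as was the case for 40.3% of all genes tested. Only 3 genes, all lower, (0.0217% of those tested) had a Benjamini-Hochberg adjusted p under 0.05 in the edgeR quasi-likelihood fit, 1411 genes had an unadjusted P under 0.05, and DESeq2 called 283 at both its own adjusted p under 0.05 and the 1.5-fold threshold. With a term for replicate number in the edgeR fit, 428 raised and 352 lowered genes passed both an adjusted p under 0.05 and the 1.5-fold threshold. The calls below are those at unadjusted P, from the fit without this term.

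The lowered genes moved further than the raised ones. The median log2 fold change was -1.15 among lowered genes and 0.87 among raised genes, and 293 lowered against 190 raised genes changed at least 2-fold. Their median level in the scramble cells was 5.39 CPM for lowered and 10.8 CPM for raised genes. Leaving out each library in turn, 196 lowered and 167 raised genes were called all 4 times, and 368 and 275 kept their direction and a fold change of at least 1.5. Without scramble replicate 2 the raised genes numbered 934.

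**Figure D1:**
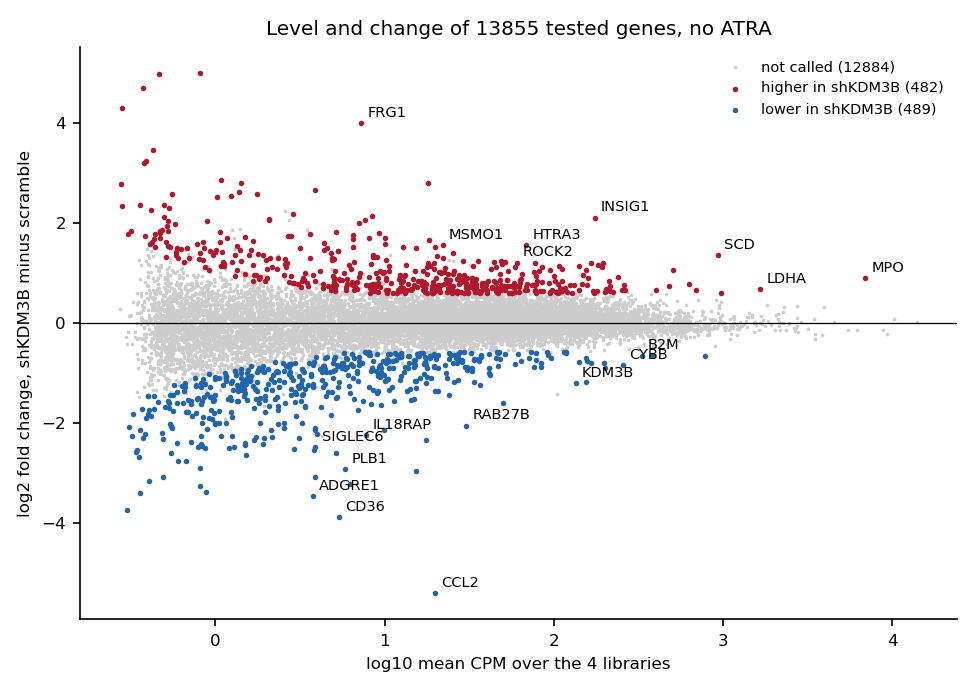
Each point is 1 of the 13855 genes tested. The x axis gives the log10 mean CPM over the 4 libraries and the y axis the log2 fold change, shKDM3B minus scramble. Red points are the 482 genes called higher and blue points the 489 called lower. The raised genes with the largest levels are MPO and LDHA, and the largest falls among the named genes are those of CCL2, CD36 and ADGRE1.

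KDM3B itself was measured first. The gene lies on the plus strand of chromosome 5 (hg38, 138352685 to 138437028, GENCODE v44). It was at 188 and 188 CPM in the scramble libraries and at 76.4 and 86.5 CPM in the shKDM3B libraries, so the groups were far apart. The log2 fold change was -1.21 (SE 0.15, edgeR adjusted p = 0.068), a reduction by 56.7%, and it lay between -1.31 and -1.13 when any library was left out.

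The 10 lowered genes with the smallest P-values were KDM3B and the 9 that follow. PLB1, a membrane phospholipase (chromosome 2, 28457145 to 28644142), fell by 2.93 on the log2 scale from 9.82 and 10.9 CPM to 1.13 and 1.54 CPM (SE 0.30, edgeR adjusted p = 0.0484). ADGRE1, an adhesion receptor of macrophages and eosinophils (chromosome 19, 6887566 to 6940459), went from 6.90 and 6.93 CPM to 0.463 and 0.739 CPM, a log2 fold change of -3.47 (SE 0.36, edgeR adjusted p = 0.0484). RAB27B, a GTPase of granule and exosome secretion (chromosome 18, 54717860 to 54895516), went from 52.4 and 45.6 CPM to 13.7 and 9.95 CPM, a log2 fold change of -2.06 (SE 0.22, edgeR adjusted p = 0.0484). These were the 3 genes that passed the adjusted threshold, and each kept its call when any library was left out.

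The next 3 were surface receptor genes. SIGLEC6, a sialic-acid-binding inhibitory receptor, was at 7.002 and 6.26 CPM in scramble and at 1.18 and 1.17 CPM in shKDM3B cells, a log2 fold change of -2.49 (SE 0.31). CD36, the scavenger receptor for fatty acids and oxidized lipoproteins, was at 14.2 and 5.93 CPM against 0.617 and 0.708 CPM, a log2 fold change of -3.89 (SE 0.48), and of -3.14 without scramble replicate 1. IL18RAP, the accessory chain of the IL-18 receptor, went from 12.3 and 13.4 CPM to 2.11 and 3.23 CPM, a log2 fold change of -2.25 (SE 0.29), and its partner IL18R1 also fell (log2 fold change -1.29). The edgeR adjusted p was 0.068 for SIGLEC6 and CD36 and 0.0745 for IL18RAP.

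The last 3 were a chemokine, a calcium-regulated factor and a lipid-mediator receptor. CCL2, the monocyte-attracting chemokine, was at 62.6 and 15.0 CPM in scramble and at 0.257 and 1.39 CPM in shKDM3B cells. Its log2 fold change was -5.41 (SE 0.80, edgeR adjusted p = 0.101), and -4.08 without scramble replicate 1, whose level was far above that of scramble replicate 2. NFATC4, a calcineurin-regulated transcription factor, fell from 21.1 and 23.4 CPM to 7.87 and 7.57 CPM, a log2 fold change of -1.53 (SE 0.21). PTAFR, the receptor for platelet-activating factor, fell from 35.8 and 35.5 CPM to 16.04 and 15.4 CPM, a log2 fold change of -1.18 (SE 0.18), and the spread between its replicates was small against the difference. The other genes with large folds were CNR2, the peripheral cannabinoid receptor (log2 fold change -3.23), the aryl hydrocarbon receptor target CYP1A1 (-3.09), the interferon-induced antiviral gene TRIM22 (-2.54) and the noncoding RNA gene LINC00599 (-2.62). Of these 4, CYP1A1 was no longer called without scramble replicate 1, where its log2 fold change was -1.01. That of CNR2 was then -1.82 and that of LINC00599 -1.45.

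Among the raised genes with the smallest P-values, 8 had well-measured levels in both groups. ROCK2, a kinase that drives actomyosin contraction, went from 36.0 and 37.2 CPM to 88.4 and 79.99 CPM, a log2 fold change of 1.20 (SE 0.16, edgeR adjusted p = 0.0757). HTRA3, a secreted serine protease, went from 38.5 and 31.5 CPM to 86.1 and 119 CPM, a log2 fold change of 1.55 (SE 0.20, edgeR adjusted p = 0.0757). COL23A1, a transmembrane collagen, rose by 1.21 on the log2 scale and MICALL2, a partner of Rab GTPases in actin and junction assembly, by 1.24. The RNA-binding protein gene RBM47 rose by 1.52, the zinc transporter gene SLC39A6 by 1.23 and PREP, a peptidase that cuts after proline, by 1.03. CXCL8, the neutrophil-attracting chemokine IL-8, was at 11.9 and 8.66 CPM against 27.1 and 31.99 CPM, a log2 fold change of 1.52 (SE 0.23, edgeR adjusted p = 0.105). The call of each of these 8 genes held without any single library. Groups that did not overlap were a condition for naming them.

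Some other raised genes picked out by P or fold had low counts. FRG1 had 18 and 19 counts in scramble and 378 and 262 in shKDM3B cells (log2 fold change 3.999, and 3.23 without shKDM3B replicate 1), and BFAR, LSM14A and HRAS had between 40 and 91 counts in each scramble library. NAP1L4 was at 5.69 and 3.40 CPM against 56.3 and 7.14 CPM, and without shKDM3B replicate 1 it was not called. These genes are widely used by human cells, and FRG1 has near-identical copies elsewhere in the genome, and whether counts this low follow their RNA was not tested. NAP1L4, BFAR, LSM14A and HRAS are given here as listed.

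In absolute level the largest rise was that of MPO, the defining azurophil enzyme of the promyelocyte. It was at 4299 and 5352 CPM in the scramble libraries and at 8346 and 9551 CPM in the shKDM3B libraries, a log2 fold change of 0.89 (SE 0.15, edgeR adjusted p = 0.105). SCD, which puts the first double bond into fatty acids, went from 263 and 792 CPM to 1344 and 1340 CPM, LDHA, the lactate dehydrogenase of glycolysis, from 1141 and 1398 CPM to 1925 and 2131 CPM, and CALM3, a calmodulin gene, from 276 and 384 CPM to 619 and 756 CPM. The largest absolute falls included those of NUCKS1, a chromatin-bound DNA repair factor (1065 and 863 CPM against 649 and 560 CPM), of the actin-binding gene TAGLN2 (457 and 465 CPM against 248 and 342 CPM) and of B2M, the light chain of MHC class I (438 and 368 CPM against 247 and 264 CPM). Groups that did not overlap were a condition for naming these genes. B2M, with a log2 fold change of -0.66, and LDHA were no longer called without scramble replicate 1, NUCKS1 without scramble replicate 1 or shKDM3B replicate 2, and TAGLN2 without shKDM3B replicate 1.

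To read the calls by function, lists of genes were compared with all genes, whose median log2 fold change was 0.00. The share of members called in either direction is read against the 7.01% of all genes. Lists and members were chosen with earlier results of these data known, so a larger share is a description only. The share of all genes called also varied with level. Between 1 and 5 CPM 3.44% of genes were raised and 7.25% lowered. At 100 CPM or more these were 2.16% and 0.634%. The lists were not tested as sets.

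Among genes of the neutrophil oxidative burst, 3 of 7 NADPH oxidase genes were called lower in the shKDM3B cells and 0 higher. All 7 had log2 fold changes below 0, with a median of -0.37. CYBB, the catalytic gp91phox subunit, was at 339 and 316 CPM in scramble and at 192 and 173 CPM in shKDM3B cells, a log2 fold change of -0.84 (SE 0.14, edgeR adjusted p = 0.106). The cytosolic subunit gene NCF1 (log2 fold change -1.16) also fell, although it shares reads with near-identical pseudogenes. The partner of CYBB in the membrane, CYBA, was at 192 and 172 CPM against 130 and 151 CPM and was not called. The median of 13 tested neutrophil activation and maturation genes was -0.36, with 3 called lower and 0 higher.

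These 3 were an adhesion subunit, a leukotriene gene and a calcium-binding protein. ITGAM, the CD11b subunit by which maturation of these cells is commonly followed, was at 20.6 and 26.1 CPM in scramble and at 9.87 and 15.0 CPM in shKDM3B cells, a log2 fold change of -0.90 (SE 0.25). ALOX5AP, which presents arachidonic acid for leukotriene synthesis, was at 3.58 and 4.62 CPM against 1.08 and 1.88 CPM. S100A8, the partner of S100A9 in calprotectin, was scarce in both groups at 1.46 and 0.841 CPM against 0.463 and 0.339 CPM, and S100A9 (8.87 and 3.70 CPM against 3.24 and 4.10 CPM) overlapped between the groups. S100A8 lost its call without scramble replicate 1 or shKDM3B replicate 2. Of 6 specific and gelatinase granule genes tested, 1 was called. This was MMP9, the gelatinase, at 52.4 and 50.7 CPM in scramble and at 17.8 and 25.7 CPM in shKDM3B cells, a log2 fold change of -1.24 (SE 0.21, edgeR adjusted p = 0.105).

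Azurophil granule genes, which belong to the earlier promyelocyte stage, went the other way for 3 of 13 tested members. Beside MPO these were the defensin genes DEFA4 (log2 fold change 1.08) and DEFA3 (1.30), both at low levels and DEFA3 with a near-identical copy in DEFA1. RNASE2, the eosinophil-derived neurotoxin, was the only one of the 13 called lower, from 179 and 178 CPM to 86.7 and 119 CPM (log2 fold change -0.79). CTSG, cathepsin G, was at 105 and 115 CPM against 149 and 127 CPM and was not called. Without shKDM3B replicate 1, DEFA4 and RNASE2 lost their calls.

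Of 7 markers of eosinophils, basophils and mast cells that were tested, 3 fell and 0 rose, with a median of -0.54. EPX, eosinophil peroxidase, was at 145 and 282 CPM in scramble and at 72.0 and 116 CPM in shKDM3B cells, a log2 fold change of -1.18. HDC, the enzyme that makes histamine, was at 198 and 323 CPM against 96.9 and 181 CPM (-0.91) and PRG3, a granule protein, at 0.957 and 1.51 CPM against 0.514 and 0.339 CPM (-1.57). Scramble replicate 2 was the highest library for each. Without it EPX was still called, at a log2 fold change of -0.63, while HDC (-0.51) and PRG3 were not. HDC also lost its call without shKDM3B replicate 1, and PRG3 without shKDM3B replicate 2. CLC had at most 14 counts in a library and FCER1A had 0 in all. Named after their values were seen, SIGLEC8 (2.17 and 2.90 CPM against 0.411 and 0.523 CPM) and IL5RA (0.856 and 0.925 CPM against 0.154 and 0.246 CPM), surface receptors of eosinophils and basophils, were also called lower.

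Siglecs are sialic-acid-binding receptors of the immune surface, most of them inhibitory. Of 6 Siglec receptors tested, 5 fell, namely SIGLEC6, SIGLEC10, SIGLEC14, SIGLEC12 and SIGLEC7, and the median log2 fold change of the 6 was -1.17. SIGLEC10 was at 23.9 and 25.4 CPM in scramble and at 7.199 and 13.9 CPM in shKDM3B cells (log2 fold change -1.22, with 22.6% of its exons overlapped by a gene on the other strand). The myeloid marker CD33 was the member that was not called. The count was 3 without scramble replicate 2 and 3 without shKDM3B replicate 1, where SIGLEC12 and SIGLEC7 were not called. SIGLEC14 is nearly identical to SIGLEC5 over part of its length and is uncertain.

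Among 9 adhesion G protein-coupled receptors 3 fell, all with a place in granulocytes or macrophages. ADGRE1 is described above. ADGRE3 had 41 and 28 counts in scramble and 1 and 7 in shKDM3B cells (log2 fold change -3.39, and -4.83 without shKDM3B replicate 2) and ADGRG3 went from 3.07 and 3.70 CPM to 1.34 and 2.31 CPM (-0.87), with its call lost without scramble replicate 2 or shKDM3B replicate 1. In a list chosen after values were seen, 3 of 5 SLAM family and CD2-related receptors fell. They were CD84 (12.5 and 21.6 CPM against 5.19 and 6.31 CPM), CD48 (10.8 and 8.41 CPM against 3.81 and 4.71 CPM, with 30.0% of its exons overlapped on the other strand) and SLAMF6, which had 11 and 15 counts against 2 and 3.

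Of 9 Fc and complement receptors 1 fell and 1 rose. FCER1G, the common signalling chain of activating Fc receptors, went from 22.6 and 18.0 CPM to 6.38 and 9.70 CPM, a log2 fold change of -1.33 (SE 0.26). Its adaptor relative TYROBP, named after its values were seen, was at 9.07 and 7.73 CPM against 4.01 and 5.11 CPM. Of 15 Src family and proximal immune kinases, FGR (3.27 and 1.81 CPM against 0.463 and 0.462 CPM) and FYN (11.4 and 14.2 CPM against 4.17 and 7.82 CPM) fell and 0 rose. TLR4, the lipopolysaccharide receptor, fell from 15.8 and 18.0 CPM to 6.74 and 8.53 CPM, the only called member of 8 Toll-like receptors and adaptors. The raised Fc and complement receptor gene was C3AR1, the receptor for the anaphylatoxin C3a, which went from 7.96 and 16.2 CPM to 24.2 and 23.3 CPM. The call of C3AR1 was lost without scramble replicate 1 and that of TYROBP without shKDM3B replicate 1.

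**Figure D2:**
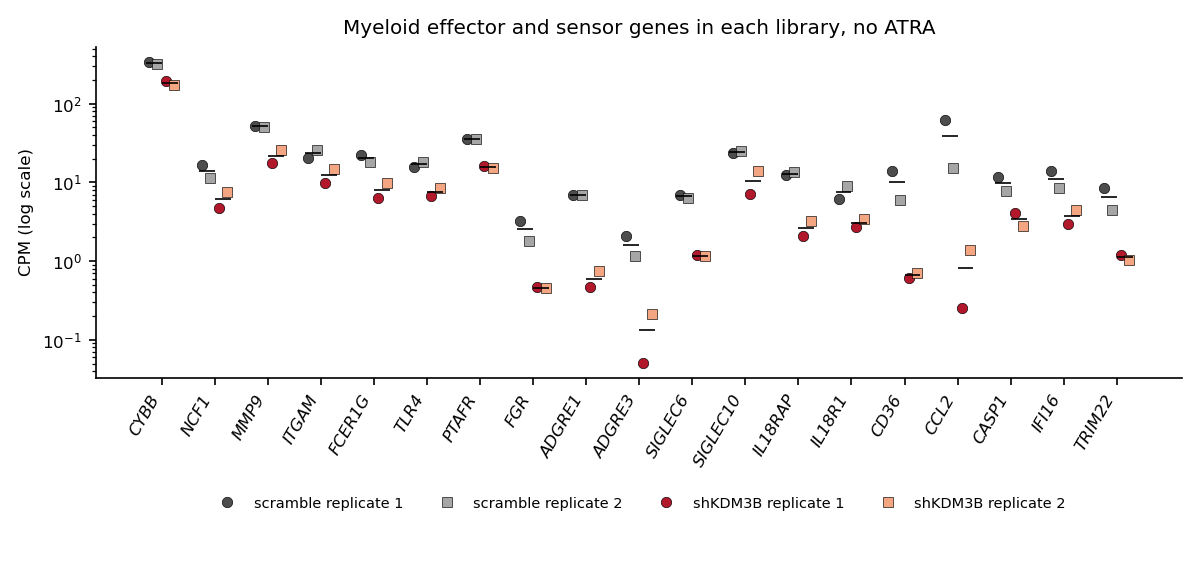
CPM on a log scale for 19 lowered genes of the oxidative burst, granules, receptors, cytokines and sensors, in each of the 4 libraries (grey, scramble; red, shKDM3B; circles, replicate 1; squares, replicate 2), with horizontal lines at the group means. All are called genes, and groups did not overlap in 964 of the 971 called genes. In each gene shown both shKDM3B libraries lie below both scramble libraries. For CCL2 and CD36 scramble replicate 1 is above scramble replicate 2.

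Of 24 chemokine and cytokine receptors tested, 7 fell and 1 rose, 14 had a log2 fold change below 0 and 10 above, and the median was -0.15. The 7 falls were 3 when shKDM3B replicate 1 was taken out. The fractalkine receptor CX3CR1 fell from 3.43 and 2.86 CPM to 1.03 and 0.954 CPM, the receptor tyrosine kinase FLT3 of early progenitors from 18.7 and 12.6 CPM to 7.35 and 5.604 CPM, and CSF2RB, the shared signalling chain of the GM-CSF, IL-3 and IL-5 receptors, from 18.2 and 19.7 CPM to 9.72 and 12.9 CPM. The monocyte chemokine receptor CCR2 was the 1 that rose, at 0.353 and 0.714 CPM against 1.44 and 1.48 CPM. Among 17 chemokines and cytokines the direction was mixed. Beside CCL2, the T cell and monocyte cytokine IL32 (4.99 and 5.04 CPM against 0.257 and 1.35 CPM), OSM (5.49 and 3.03 CPM against 1.80 and 2.22 CPM) and IL1B (1.86 and 1.64 CPM against 0.771 and 0.985 CPM) fell, whereas CXCL8 and the death ligand TNFSF10 (6.70 and 7.52 CPM against 12.3 and 11.02 CPM) rose. The count of 4 lowered was 2 without scramble replicate 1 and 2 without shKDM3B replicate 1, where OSM, IL1B and the raised TNFSF10 lost their calls. IL1B was not called when any library was left out, CSF2RB not without shKDM3B replicate 1 and CCR2 not without scramble replicate 1.

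Interferon-stimulated genes are switched on by interferon through the factor complex ISGF3 and through the IRF family. Of 47 listed, 34 were tested, of which 9 fell and 1 rose, 23 had a log2 fold change below 0 and the median was -0.36. The number lowered was between 6 and 9 when a library was left out, the 6 being without shKDM3B replicate 1. TRIM22 was at 8.56 and 4.45 CPM in scramble and at 1.18 and 1.05 CPM in shKDM3B cells (log2 fold change -2.54, SE 0.40). SAMD9L, a translation-blocking antiviral gene, went from 4.94 and 3.36 CPM to 1.18 and 0.770 CPM (-2.11), IFI6 from 5.54 and 4.45 CPM to 1.95 and 2.25 CPM (-1.24), and IRF1, the transcription factor, from 47.8 and 30.3 CPM to 17.9 and 23.9 CPM (-0.90, with 22.9% of its exons overlapped on the other strand). IFIT2, which binds viral RNA, was the 1 member that rose, from 1.11 and 0.630 CPM to 1.85 and 1.76 CPM, and ISG15 was at 4.03 and 4.45 CPM against 2.67 and 3.33 CPM and was not called. IRF1 lost its call without scramble replicate 1, and IFIT2 without any library but scramble replicate 1.

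The promoters of these genes were read for the interferon-stimulated response element, because it is the element through which such genes are switched on. The word searched was GAAA, any 2 bases and GAAA again, on both strands, from 250 bases before to 50 bases after the RefSeq start (build GRCh38.p14). The word was found in 5 of the 7 lowered members with an entry and in 11 of the 16 members that were tested and not called. It was found in 4.38% of all 27305 genes with an entry. A gene was counted as holding it if any of its promoters did, and PARP9 also had an entry without it. The stretch of PARP9 is shared with DTX3L, a member that was not called. Whether the shares differ was not tested, and 7 genes are few for it. The stretches of the 5 lowered members are shown 5′ to 3′ on the strand of the gene, with the matched word in capitals. For PARP9 the word lies on the opposite strand and reads reversed and complemented. IFI6 held it at 3 places and OAS3 at 2, of which 1 is printed.
IFI6 (chr1:27672266-27672295, minus strand): gcagagtgcaGAAATAGAAActccgacagg
ISG20 (chr15:88638937-88638966, plus strand): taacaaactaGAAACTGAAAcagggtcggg
OAS3 (chr12:112938321-112938350, plus strand): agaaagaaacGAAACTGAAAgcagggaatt
PARP9 (chr3:122564322-122564351, minus strand): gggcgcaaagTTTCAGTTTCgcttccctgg
LGALS3BP (chr17:78979962-78979991, minus strand): gtggtttctgGAAATCGAAAgtagactctt
The word begins 93 bases before the start in IFI6, 69 in ISG20, 143 in OAS3, 41 in PARP9 and 58 in LGALS3BP. A match describes letters and is not evidence of binding. Of the 4 genes not yet described, named here for their sequences, ISG20, an exonuclease of viral RNA, was at 0.806 and 0.967 CPM in scramble and at 0.360 and 0.0924 CPM in shKDM3B cells. OAS3, which makes the activator of RNase L, was at 3.83 and 3.36 CPM against 0.771 and 2.28 CPM. PARP9 was at 15.0 and 15.5 CPM against 9.92 and 9.36 CPM, and LGALS3BP, a secreted galectin ligand, at 104 and 122 CPM against 57.3 and 87.1 CPM. Without shKDM3B replicate 2, ISG20 and PARP9 were not called, and without shKDM3B replicate 1, OAS3 and LGALS3BP were not, the latter also not without scramble replicate 2.

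Cytosolic sensors of DNA and danger signals, a list chosen after values were seen, were lower for 6 of 12 tested members and higher for 1. CASP1, the protease that releases active IL-1β, was at 11.7 and 7.82 CPM in scramble and at 4.06 and 2.77 CPM in shKDM3B cells (log2 fold change -1.52, SE 0.32). IFI16, a nuclear DNA sensor, went from 13.8 and 8.57 CPM to 2.93 and 4.53 CPM (-1.57) and NLRC4, an inflammasome scaffold, from 2.37 and 3.07 CPM to 0.823 and 0.954 CPM (-1.60, with 56.2% of its exons overlapped on the other strand). TMEM173, known as STING, fell by 0.63 on the log2 scale and lost its call without shKDM3B replicate 2. The pore-forming protein gene GSDMD rose from 0.504 and 0.210 CPM to 2.47 and 2.46 CPM. The S100 family, also chosen after values were seen, had 8 of 11 tested members called lower and 0 higher, with a median of -0.84. S100B was at 8.36 and 6.72 CPM against 1.95 and 2.19 CPM, S100P at 26.5 and 18.1 CPM against 10.1 and 10.4 CPM, and S100A6 at 14.9 and 11.9 CPM against 6.07 and 6.84 CPM. The 8 were 3 without scramble replicate 1, and 5 when a trend with transcript length was taken out. All 3 tested metallothionein genes, a list chosen in the same way, rose, with MT2A at 21.0 and 39.5 CPM against 53.7 and 83.4 CPM.

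Of 11 tested genes of MHC class I antigen presentation, B2M was the only call. None of 12 MHC class II genes passed the filter. Of 17 NF-kB factors and feedback genes, REL and TNFAIP3 rose and BCL3 fell. TNFAIP3, at 15.8 and 14.6 CPM against 23.3 and 23.1 CPM, was not called under upper-quartile scaling, nor without any library but scramble replicate 1.

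Of 34 genes of cholesterol and fatty acid synthesis, 32 were tested, 13 were called higher and 0 lower, 30 had a log2 fold change above 0 and the median was 0.60. Their summed level was 2733 and 4546 CPM in scramble and 5797 and 6216 CPM in shKDM3B cells. INSIG1, the SREBP-induced brake on the pathway, was at 25.5 and 106 CPM in scramble and at 278 and 288 CPM in shKDM3B cells, a log2 fold change of 2.10 (SE 0.52, edgeR adjusted p = 0.191). MSMO1, which removes methyl groups from lanosterol, was at 8.97 and 13.5 CPM against 36.3 and 29.6 CPM, a log2 fold change of 1.55 (SE 0.25, edgeR adjusted p = 0.105). HMGCS1, the synthase at the entry of the mevalonate pathway, was at 68.5 and 108 CPM against 189 and 200 CPM (log2 fold change 1.14, with 37.7% of its exons overlapped on the other strand).

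STARD4, a cytosolic cholesterol carrier, was at 17.2 and 22.8 CPM in scramble and 47.1 and 30.8 CPM in shKDM3B cells (log2 fold change 0.96). SCD had a log2 fold change of 1.35 and FASN, the fatty acid synthase, of 0.60, at 616 and 936 CPM against 1062 and 1284 CPM. Named after its values were seen, the squalene synthase gene FDFT1 (129 and 183 CPM against 236 and 264 CPM) was called with a log2 fold change of 0.68. The regulators themselves were not called, with SREBF1 at 86.9 and 138 CPM against 163 and 170 CPM and SREBF2 at 108 and 149 CPM against 172 and 189 CPM.

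In each of the 7 called genes just given scramble replicate 1 was the lowest of the 4 libraries and scramble replicate 2 lay between it and the shKDM3B libraries. Without scramble replicate 1, 6 of the 13 were called. INSIG1 then had a log2 fold change of 1.42, MSMO1 of 1.29, HMGCS1 of 0.85 and SCD of 0.76, and all 4 were still called, whereas FASN and FDFT1 were not. Without scramble replicate 2 the count was 23, and the log2 fold changes of INSIG1 and SCD were 3.47 and 2.35. What sets scramble replicate 1 apart was not tested.

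Lipid uptake and storage genes outside synthesis were mixed, with 3 of 19 tested higher and 3 lower. LPL, the lipoprotein lipase, rose from 36.0 and 40.1 CPM to 65.3 and 60.6 CPM, and the fatty acid sensor PPARA from 2.32 and 5.55 CPM to 10.1 and 8.28 CPM. The lowered members were CD36, the fat-storage receptor PPARG (8.36 and 6.14 CPM against 3.39 and 4.83 CPM) and the lipid droplet coat gene PLIN2, which had 12 and 14 counts in scramble and 1 and 4 in shKDM3B cells. PPARG was not called without scramble replicate 1 or without shKDM3B replicate 1.

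Of 16 hypoxia-responsive genes tested, 6 were called higher and 0 lower, and the median was 0.60. ADM, the vasodilator peptide adrenomedullin, was at 2.87 and 2.86 CPM in scramble and at 7.10 and 8.34 CPM in shKDM3B cells (log2 fold change 1.43). EGLN1, the oxygen-sensing prolyl hydroxylase, went from 29.7 and 36.1 CPM to 55.5 and 51.4 CPM (0.70), ANKZF1 from 31.4 and 41.3 CPM to 61.3 and 60.9 CPM (0.75) and MXI1, a MYC antagonist, from 35.9 and 36.6 CPM to 57.3 and 54.2 CPM (0.62). The glucose transporter SLC2A1 rose by 0.69 on the log2 scale, and SLC2A1 and LDHA were the 2 called of 23 glycolysis genes, whose median was 0.12. Without scramble replicate 1, ANKZF1, EGLN1, SLC2A1 and LDHA lost their calls, MXI1 did so without shKDM3B replicate 1 and SLC2A1 without shKDM3B replicate 2. The count of 6 was 3 without scramble replicate 1 and 11 without scramble replicate 2.

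**Figure D3:**
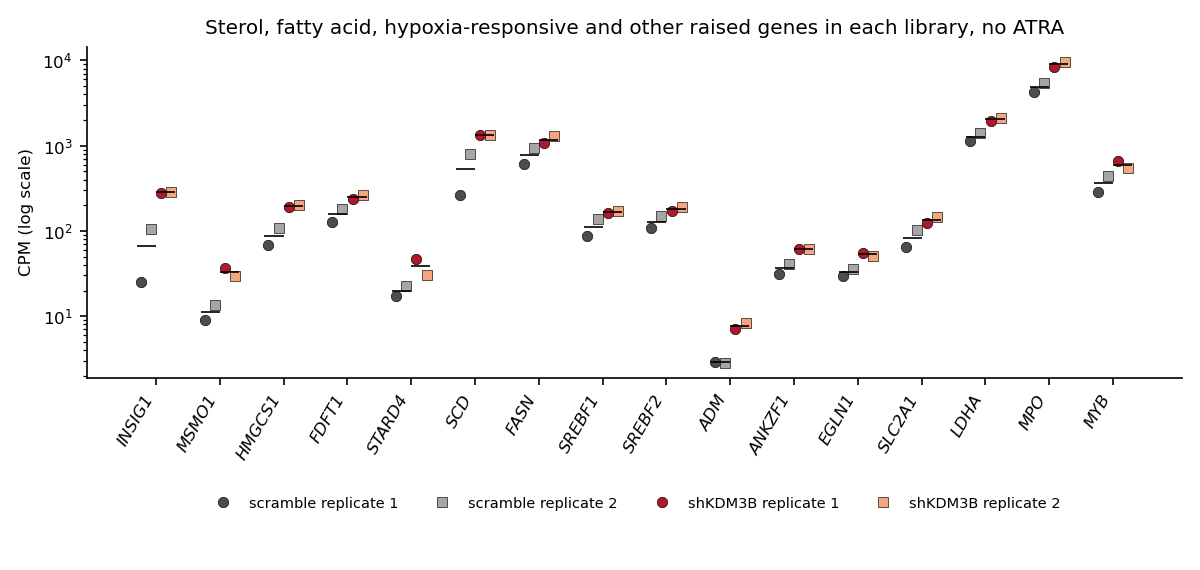
CPM on a log scale for 16 genes of sterol and fatty acid synthesis, the hypoxia response and granule or progenitor identity, in each of the 4 libraries (grey, scramble; red, shKDM3B; circles, replicate 1; squares, replicate 2), with horizontal lines at the group means. INSIG1 and SCD show scramble replicate 1 well below scramble replicate 2, whereas ADM and MPO show scramble libraries close together.

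Among 16 myeloid transcription factors 3 rose and 1 fell. MYB, which keeps progenitors from maturing, was at 286 and 435 CPM in scramble and at 652 and 549 CPM in shKDM3B cells, a log2 fold change of 0.74 (SE 0.21), and it was not called without scramble replicate 1. EGR1, an immediate early factor of monocytic maturation, went from 1.76 and 2.82 CPM to 6.43 and 9.64 CPM (1.81, SE 0.35) and KLF2 from 0.453 and 0.210 CPM to 0.977 and 0.862 CPM (1.48). IRF8, the factor of the monocyte and dendritic line, fell from 3.78 and 2.94 CPM to 1.65 and 1.14 CPM (-1.28). Of 4 tested monocyte and macrophage markers, FCN1 (31.8 and 31.9 CPM against 14.8 and 25.5 CPM) and CSF1R (4.58 and 5.09 CPM against 2.16 and 3.42 CPM) fell, both losing the call without shKDM3B replicate 1 and CSF1R also without scramble replicate 2. KLF2 kept its call only without scramble replicate 1, and IRF8 lost it without shKDM3B replicate 2. CD163 and FCGR3A of this list had 0 counts, and its summed level was 75.2 and 78.4 CPM in scramble and 44.1 and 67.1 CPM in shKDM3B cells.

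Factors and markers of the erythroid and megakaryocytic line were split. GATA1, the master factor of both lines, went from 4.68 and 5.72 CPM to 0.977 and 1.57 CPM and the platelet integrin ITGA2B from 7.81 and 7.61 CPM to 1.75 and 3.57 CPM, while LMO2, a bridging partner of GATA1 complexes, rose by 1.04 on the log2 scale. The integrin ITGA6 (12.4 and 13.03 CPM against 35.4 and 27.1 CPM) and ITGA4 (181 and 226 CPM against 358 and 283 CPM, with 26.4% of its exons overlapped on the other strand) rose among 10 leukocyte integrins, and ITGAM and ITGB7 (42.3% of its exons overlapped) fell. The calls of ITGA4 and ITGB7 were lost without shKDM3B replicate 1, and that of ITGA4 also without scramble replicate 1. In a list of HOXA and HOXB genes and genes associated with them, HOXA5 was the only 1 of 10 tested that was called. It fell, at 1.46 and 1.60 CPM against 0.514 and 0.369 CPM.

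The H3K9 demethylase family was examined beside its silenced member. Of 11 genes, KDM3B fell and KDM7A, which removes methyl groups from H3K9 and H3K27, rose from 3.02 and 5.21 CPM to 12.03 and 16.7 CPM, a log2 fold change of 1.80 (SE 0.32, edgeR adjusted p = 0.111). KDM3A, the closest relative of KDM3B, was at 53.7 and 61.4 CPM against 87.2 and 85.5 CPM, so that the groups did not overlap, but its log2 fold change of 0.58 (SE 0.15) was just under the fold threshold. With a term for replicate number in the fit it was 0.586, just over that threshold. None of 16 H3K9 methyltransferases and readers was called. Of 41 other histone and DNA modifying enzymes 3 rose and 0 fell. They were TET1, which oxidizes methylated DNA (13.5 and 18.3 CPM against 35.4 and 27.5 CPM), the H3K4 demethylase KDM5B (82.9 and 141 CPM against 210 and 205 CPM) and HDAC9 (1.76 and 1.39 CPM against 4.06 and 3.08 CPM). KDM5B was not called without scramble replicate 1, nor HDAC9 without shKDM3B replicate 1.

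Genes around KDM3B on 5q31 did not move together. Of 17 tested, EGR1, which starts 28451 bases beyond the end of KDM3B, rose, REEP2 fell (2.32 and 1.77 CPM against 0.411 and 1.23 CPM) and the median was -0.04. Retinoid receptors and co-regulators numbered 14, of which ZBTB16, the PLZF factor fused to RARα in a rare form of APL, rose from 6.10 and 10.5 CPM to 18.2 and 19.1 CPM. RARA was at 48.7 and 46.7 CPM against 28.5 and 43.7 CPM and was not called. In 7 retinoic acid target and metabolism genes, the retinol dehydrogenases DHRS9 (23.6 and 33.9 CPM against 59.4 and 65.2 CPM) and DHRS3 (2.42 and 2.14 CPM against 3.60 and 4.19 CPM) rose. DHRS3 was not called when any library was left out, and REEP2 not without scramble replicate 1 or shKDM3B replicate 1.

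Of 43 ribosome biogenesis genes, 75 cytosolic ribosomal protein genes, 31 proteasome subunits, 14 heat shock genes, 13 mitochondrially encoded genes and 12 replication-dependent histone genes, 0 were called, with medians from -0.14 to 0.07. Each of the following lists had 1 call. Of 54 DNA replication and G1/S genes CCNE1, cyclin E1, rose (21.5 and 29.6 CPM against 42.3 and 45.2 CPM), and of 57 mitosis genes NCAPH, a condensin subunit, rose (85.4 and 74.6 CPM against 153 and 134 CPM). Of 40 nuclear-encoded respiratory chain subunits SDHD rose (66.4 and 56.1 CPM against 150 and 106 CPM), of 20 ATF4 targets STC2 rose, of 21 folding and unfolded protein response genes XBP1 rose (63.2 and 92.8 CPM against 129 and 137 CPM), of 20 p53 targets TNFRSF10B rose, and of 30 lysosome and autophagy genes GABARAP fell. CCNE1, XBP1, STC2 and TNFRSF10B lost their calls without scramble replicate 1, TNFRSF10B also without shKDM3B replicate 1, and GABARAP without any library.

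Of 19 tested regulators of the G1 phase 3 rose, CCNE1 among them, and 1 fell. Of 10 tested genes of the MYC and MAX network 2 rose, MYC and MXI1, and 1 fell, MXD3. CDK6 (25.9 and 20.05 CPM against 57.8 and 28.4 CPM) and E2F5 (18.1 and 20.1 CPM against 42.8 and 27.8 CPM) rose and the inhibitor CDKN2D, p19, fell from 26.0 and 20.1 CPM to 9.36 and 13.3 CPM. CDK6 and E2F5 were not called without shKDM3B replicate 1, which was the highest library for both. MYC was at 454 and 615 CPM in scramble and at 766 and 915 CPM in shKDM3B cells, a log2 fold change of 0.65, with a call lost without scramble replicate 1 or shKDM3B replicate 2. Of 22 immediate early genes EGR1 rose and DUSP6 (28.6% of its exons overlapped on the other strand), KLF6 and JUND fell. Those 3 calls were lost without shKDM3B replicate 1, those of DUSP6 and JUND also without scramble replicate 2 and that of KLF6 also without scramble replicate 1.

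Survival genes of the BCL2 family changed at both ends. BCL2, the guardian against mitochondrial death, rose from 18.9 and 35.8 CPM to 58.6 and 57.6 CPM (log2 fold change 1.08) and BCL2A1, the related gene of maturing neutrophils, fell from 5.34 and 3.36 CPM to 1.85 and 1.76 CPM (-1.27). The death-promoting members BAD, BMF and BIK were called lower too, so that 1 of 14 tested members rose and 4 fell. BCL2A1 and BMF lost their calls without scramble replicate 1, and BAD without shKDM3B replicate 1, where its log2 fold change was -0.47. BIK lost its call without any library but shKDM3B replicate 2. MCL1 was at 166 and 144 CPM against 216 and 190 CPM and was not called. Of 9 coagulation and fibrinolysis genes, tissue factor F3 (37.3 and 30.2 CPM against 23.9 and 20.8 CPM), the urokinase gene PLAU and protein S, PROS1, fell and 0 rose. PROS1 was not called when any library was left out, F3 not without scramble replicate 1 or shKDM3B replicate 2, and PLAU (31.03% of its exons overlapped) not without shKDM3B replicate 1.

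Signalling ligands and their mediators changed in both directions. Of 15 tested Wnt and Notch pathway genes 3 rose and 2 fell. Of 16 tested genes of the TGF-beta family and its inhibitors 2 rose and 1 fell. SKIL, a repressor of TGF-beta signalling, was at 44.1 and 14.7 CPM in scramble and at 5.96 and 5.604 CPM in shKDM3B cells, a log2 fold change of -2.34 and of -1.35 without scramble replicate 1. The receptor TGFBR2 rose from 23.9 and 17.4 CPM to 37.5 and 35.0 CPM, and the ligand TGFB2 had 6 and 5 counts against 56 and 31. CTNNB1, β-catenin, fell from 226 and 195 CPM to 115 and 126 CPM, a log2 fold change of -0.80 (SE 0.15, edgeR adjusted p = 0.125), and HES1, a Notch target, from 10.4 and 7.65 CPM to 2.78 and 4.003 CPM. WNT10B (2.52 and 3.36 CPM against 7.82 and 6.47 CPM), the R-spondin receptor LGR4 and the Notch feedback gene NRARP rose. LGR4 lost its call without shKDM3B replicate 1 and NRARP without scramble replicate 1 or shKDM3B replicate 2. Among 19 Rab and exocytosis genes RAB7B rose and RAB27B and the granule-docking gene SYTL3 fell, the last not called without shKDM3B replicate 2. Of 2 tested cancer-testis genes MAGEB2, with 0 and 2 counts in scramble, rose and XAGE1B, which has near-identical copies, fell and was not called without scramble replicate 2. Of the lists of erythroid, B cell, T cell and epithelial markers, with 1 to 3 tested members each, 0 genes were called, and of the megakaryocyte list ITGA2B was the only gene tested.

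Some further called genes were named after their values were seen. ALCAM, an adhesion molecule (103 and 116 CPM against 182 and 161 CPM), ANPEP, the CD13 antigen (464 and 468 CPM against 632 and 956 CPM), SATB1, a chromatin organizer (40.9 and 66.4 CPM against 124 and 110 CPM), HMGA2, an embryonic chromatin protein (4.18 and 5.93 CPM against 13.2 and 9.82 CPM), and TERT, the telomerase catalytic subunit (5.89 and 11.4 CPM against 13.3 and 18.4 CPM), were called higher. NKG7 (46.2 and 33.7 CPM against 19.4 and 23.5 CPM) and PRF1, perforin (23.2 and 22.9 CPM against 11.9 and 16.1 CPM), both known from cytotoxic granules, and the AP-1 family factor BATF (9.57 and 7.86 CPM against 3.09 and 4.13 CPM) were called lower. The calls of ALCAM and TERT were lost without scramble replicate 1, those of ALCAM and PRF1 without shKDM3B replicate 1 and those of ANPEP and TERT without shKDM3B replicate 2.

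The calls were uneven over expression level and transcript length. Of 2366 genes with a mean of at least 100 CPM, 51 were raised and 15 lowered, and of 2469 genes between 1 and 5 CPM, 85 were raised and 179 lowered. The median log2 fold change rose from -0.07 in the shortest of 5 equal groups of genes by summed exon length to 0.09 in the longest, and the calls went from 62 higher and 118 lower to 140 higher and 59 lower. With the trend taken out, 419 genes were called higher and 489 lower, and the longest group had 85 and 83. Chromosomes had medians between -0.04 and 0.06. Chromosome 8 had 26 raised and 9 lowered of 404 genes and chromosome 19 had 15 raised and 29 lowered of 864.

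The 4 libraries of ATRA-treated cells give a further measurement of the knockdown in other libraries, where effects of the shRNA other than those on KDM3B cannot be told apart either. They were fitted on their own, with 1087 of 12227 genes called (8.89%), 407 higher (3.33%) and 680 lower (5.56%), of which 0 had an edgeR adjusted p under 0.05 and 1530 genes an unadjusted P under 0.05, and share no library with the comparison without ATRA. Of 391 genes raised without ATRA that could be tested in both, 97 (24.8%) were also called higher with ATRA, where 3.37% of all genes tested in both fits were, and 7 were called lower. Of 377 lowered genes, 141 (37.4%) were also called lower, against 5.35% of all, and 4 were called higher. Without shKDM3B+ATRA replicate 1 these counts were 26 and 64, without shKDM3B+ATRA replicate 2 the raised count was 36, and without a scramble+ATRA library it was 152 or 157. In 3 of the ATRA libraries from 50.02% to 51.4% of the counted reads fell outside genes, against 9.36% in scramble+ATRA replicate 1. The ATRA libraries list 56609 gene names against 56470 without ATRA. Of these 37526 are shared, and only shared names were fitted with ATRA.

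The values of named genes in both sets were set side by side. KDM3B was lower with ATRA as well (log2 fold change -1.51). CYBB (-1.01), ITGAM (-0.80), FCER1G (-1.60), FGR (-1.12), S100A8 (-3.29), ADGRE1 (-3.36), CD36 (-2.33), CCL2 (-2.30), PLB1 (-2.09) and GATA1 (-2.82) are log2 fold changes with ATRA of genes lowered in both. MPO was at 713 and 609 CPM in scramble+ATRA and at 3119 and 2212 CPM in shKDM3B+ATRA cells (log2 fold change 2.01), and MYB (0.96), SATB1 (1.15), TET1 (1.06), KDM5B (0.99), ALCAM (1.62), ITGA4 (1.16) and ROCK2 (0.88) were also raised in both. By contrast INSIG1 (0.67), MSMO1 (0.59), HMGCS1 (0.71), SCD (0.91) and LDHA (0.02) were not called with ATRA, nor were RAB27B (-0.56), TRIM22 (-0.78), PTAFR (-0.06), KDM7A (-0.17) and CXCL8 (-1.36). Whether the effects differ between the sets was not tested.

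**Figure D4:**
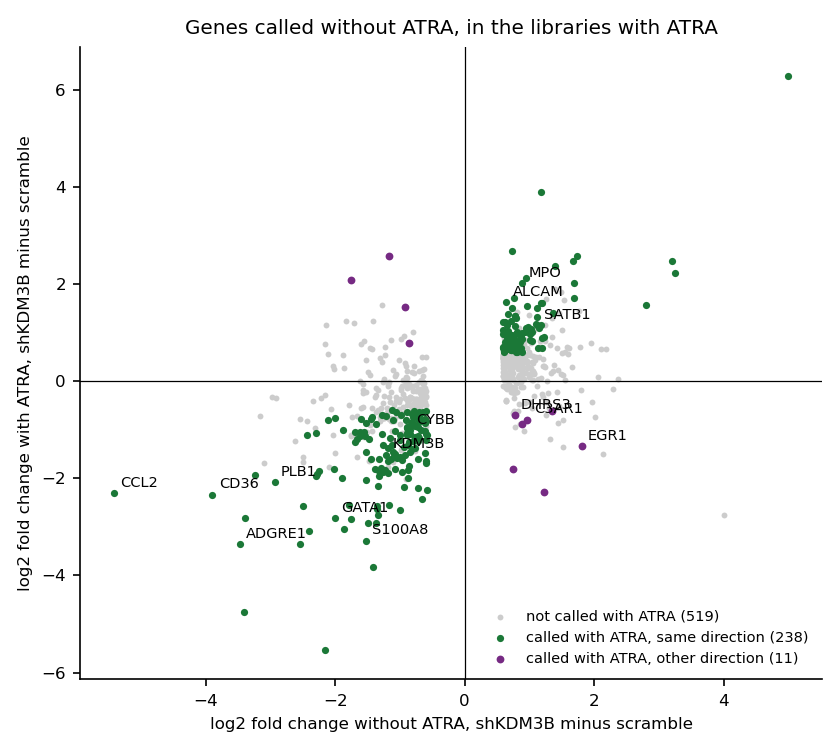
Each point is a gene called in the comparison without ATRA and tested in both fits. The x axis gives its log2 fold change without ATRA and the y axis that with ATRA, both shKDM3B minus scramble. Green points (238) were called in the same direction with ATRA, purple points (11) in the other direction and grey points (519) were not called with ATRA.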

How the data were processed

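RNA-seq of NB4 cells was analysed in 4 libraries without ATRA, and the 4 with ATRA were fitted separately. Per the labels the authors used HISAT2, Picard, SAMtools, HTSeq and DESeq2 with the hg38 genome, and the study's methods name Trim Galore. Versions are not given in the sources used here. The authors deposited whole-number counts per gene, not normalized, from a library kit that does not mark strand, so reads of overlapping genes on opposite strands cannot be told apart. Summary lines for reads outside genes (8.49% to 9.62% in the libraries without ATRA) were left out of library sizes and tests. The number of unused value columns was 0. Gene positions came from GENCODE v44 by gene name, which matched 88.7% of the genes tested. Depth was 19444480 to 33017787 counts on genes. Reads carried no molecular identifiers, so amplified copies could not be told from separate molecules, and counting error is not the only limit on precision.

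Counts were fitted with edgeR 4.0.16 in R 4.3.3 (filterByExpr, TMM, quasi-likelihood test, 2 libraries a group, no block) and SEs were derived from the fitted log2 fold change and its F statistic. CPM use the TMM-scaled library size. With 2 against 2 libraries a two-sided exact permutation test of 1 gene cannot give a p below 0.333, so none is given. Named genes were KDM3B, genes with an adjusted p under 0.05 and, in each direction and with groups that did not overlap, the 10 called genes with the smallest P, the 8 with the largest fold change at a mean of at least 5 CPM in the higher group, the 5 with the largest CPM difference and up to 4 called members of each list. Members given as not called were added, and names built from clone accessions were counted but not described. Members and the 60 lists were chosen with earlier results of these data known, and 4 more lists (S100, metallothionein, inflammasome and sensor, SLAM) after these values were seen. Alternatives were DESeq2 1.42.0, other scalings and filters, a likelihood ratio test, a replicate block, each library left out, removal of the trend with exon length, and genes without exons overlapped on the other strand. The fit was tested on simulated data. Promoter sequences came from RefSeq (GRCh38.p14), where 23 of 34 tested interferon-stimulated genes matched. Some items are not reported here.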

Additional observations from a re-analysis of the deposited data

Results flagged for a closer look

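In 12 genes named above both shKDM3B libraries lay on one side of both scramble libraries without ATRA and on the other side with ATRA. The difference between the sets was not tested in any of them. Groups that did not overlap were common, at 40.3% of all genes tested without ATRA. The share of all genes on opposite sides in the sets is not given here. Whether 12 genes are more than chance would give was not tested, so they are listed as a description only. Genes higher without ATRA and lower with it, given by their log2 fold change with ATRA, were C3AR1 (-0.79), DHRS3 (-0.70), EGR1 (-1.34), FRG1 (-2.75), ITGA6 (-0.24) and NRARP (-0.65). Genes lower without ATRA and higher with it were CASP1 (0.43), F3 (0.50), FLT3 (0.40), PPARG (1.02), PROS1 (0.79) and SAMD9L (0.55). No group had the 4 libraries needed to test single libraries as outliers.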

How the results depend on the processing

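At an adjusted p under 0.05 the edgeR test called 0 genes higher and 3 lower, and KDM3B (log2 fold change -1.21) did not pass. DESeq2 with its own adjusted p called 156 and 127, and KDM3B passed (5.68e-08). Without a low-count filter 737 genes were lower, and among genes with no exons overlapped on the other strand, a smaller set of 7087 genes, 275 were higher and 280 lower. Leaving out 1 library gave 465 to 934 higher and 426 to 661 lower genes. In the libraries with ATRA the same step gave 26 to 157 genes higher in both sets and 64 to 196 lower in both. The causes were not tested. The labels give a shared number but no shared batch, and deviations of same-numbered libraries correlated at 0.384 over 12534 genes. Principal component 2, with 36.5% of the variance, put replicate 1 libraries at 15.1 (scramble) and 25.6 (shKDM3B). It put replicate 2 libraries at -23.1 and -17.6. Scramble replicate 2 had a higher Spearman correlation with shKDM3B replicate 2 (0.991) than with scramble replicate 1 (0.986). The replicate block was kept as an alternative. With the block the edgeR adjusted p was under 0.05 for 428 higher and 352 lower genes, against 0 and 3 without it, and that of KDM3B was 3.97e-07. At unadjusted P 614 genes were then higher and 628 lower, and 85 and 145 were called in the same direction with ATRA. Of 196 named genes, 18 lost their call under DESeq2, 13 with the length trend removed, 5 under upper-quartile scaling, 44 without scramble replicate 1 and 47 without shKDM3B replicate 1, and no direction was reversed in any alternative run. Depth ran from 19444480 to 33017787 counts, the deepest library being shKDM3B replicate 2, and genes under 1 CPM rest on few counts.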
